A study of Mus musculus with 8 samples.

Results

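The messenger RNA of 9 genes that write or erase chromatin methylation was followed in mouse liver: the DNA methyltransferases Dnmt1, Dnmt3a and Dnmt3b, the Dnmt1 cofactor Uhrf1, the TET dioxygenases Tet1, Tet2 and Tet3, and the Polycomb methyltransferases Ezh1 and Ezh2. They were taken by name from the 35204 gene rows of the deposited table, and all 9 passed the filter on low values (mean over the 8 libraries at or above 10), as did 14171 genes in all. The 3 control libraries came from untreated wild-type C57BL/6J mice. The 5 TAZ-CCl4 libraries came from wild-type C57BL/6J mice given TAZS89A, driven by the EF1a promoter, by hydrodynamic tail vein injection (HTVI), and carbon tetrachloride (CCl4) 30 times, 3 times a week for 10 weeks. TAZ, encoded by Wwtr1, is a coactivator held back by the Hippo pathway, S89A removes a phosphorylation site through which it is held back, and CCl4 is a liver toxin. HTVI delivers plasmid mainly to hepatocytes, and the EF1a promoter is active in most cell types. No library received TAZS89A alone or CCl4 alone, and the controls belong to one library project and the TAZ-CCl4 libraries to another, so the construct, the toxin and the library project cannot be told apart.

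Dnmt1 copies methylation of CpG cytosines onto the new DNA strand behind the replication fork, and Uhrf1 recruits it by binding hemimethylated CpG. Dnmt3a and Dnmt3b methylate unmethylated DNA de novo, and the TET enzymes oxidise methylcytosine, which leads to its removal. Ezh2 and Ezh1 are alternative catalytic subunits of Polycomb repressive complex PRC2, which methylates histone H3 on the lysine that marks Polycomb-silenced genes, and Ezh2 is the form tied to dividing cells while Ezh1 is also found in resting ones. Adult liver is largely quiescent, and genes of DNA replication, among them Dnmt1, Uhrf1 and Ezh2, are known targets of E2F factors. The values here are RNA levels, and neither DNA methylation nor histone marks were measured.

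Promoter sequences are shown for the known E2F targets among the 9, which all rose (Uhrf1, Dnmt1, Ezh2), and for Ezh1 as the paralogue to compare with Ezh2. RefSeq (GRCm38.p6) lists 14 starts for the 9 genes, each with 250 bases before and 50 after the start. Motifs of 3 factors were searched on both strands in all 32851 such windows: E2F as TTTCCCGC, TTTCGCGC, TTTGCCGC or TTTGGCGC (found in 2.26% of all windows), NF-Y as CCAAT (37.4%) and TEAD, the DNA-binding partner of TAZ, as GGAATG (14.7%). Capitals mark E2F and NF-Y matches on either strand, and a match is a string of letters, not a measured binding site. The upstream stretch of the second Uhrf1 start (chr17:56304063-56304312, plus strand), of the Ezh2 start (chr6:47595059-47595183, minus strand) and of the Ezh1 start (chr11:101226464-101226713, minus strand) lie outside annotated exons.
Uhrf1, second start: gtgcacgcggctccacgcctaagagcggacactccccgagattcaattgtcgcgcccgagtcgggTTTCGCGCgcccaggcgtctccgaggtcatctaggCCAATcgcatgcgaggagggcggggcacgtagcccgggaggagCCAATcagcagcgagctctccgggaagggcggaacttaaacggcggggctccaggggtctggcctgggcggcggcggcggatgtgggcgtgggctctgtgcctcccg
Ezh2, upstream: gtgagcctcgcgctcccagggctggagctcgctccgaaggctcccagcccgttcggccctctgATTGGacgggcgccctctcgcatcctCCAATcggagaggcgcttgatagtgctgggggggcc
Ezh1, upstream: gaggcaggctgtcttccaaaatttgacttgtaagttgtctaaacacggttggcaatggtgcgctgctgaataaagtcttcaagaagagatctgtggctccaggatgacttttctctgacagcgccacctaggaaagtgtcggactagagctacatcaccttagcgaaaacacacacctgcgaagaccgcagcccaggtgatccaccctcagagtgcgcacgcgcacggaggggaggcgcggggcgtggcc
The E2F letters of Ezh2 lie just after its start (chr6:47595001-47595030, minus strand), and those of the third Dnmt1 start lie at chr9:20952822-20952851 and chr9:20952574-20952603 (minus strand). These 3 stretches overlap annotated exons.
Ezh2, after the start: gcgTTTGGCGCtcggtccggtcgcgtccga
Dnmt1, the third start, before: tttccgcgcGCGCGAAAaagccggggtctc
Dnmt1, the third start, after: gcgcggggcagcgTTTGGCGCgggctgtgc

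E2F letters were thus present in a window of Uhrf1 (first base at -185 from the second start), of Dnmt1 (-219 and 34 from the third start) and of Ezh2 (4 bases after the start). They were absent from the windows of Dnmt3a (3 starts), Dnmt3b, Tet1, Tet2, Tet3 and Ezh1. Of these genes without the letters, Tet3 and Ezh1 also rose on the deposited scale (log2 fold change 0.78 and 0.59). The genes shown were chosen as known E2F targets, and a link between the letters and the rises was not tested. No E2F match overlapped an NF-Y match. NF-Y matches numbered 5 at the first and 3 at the third Dnmt1 start, 3 at the first and 2 at the second Uhrf1 start, 3 for Ezh2 and 1 for Tet3, and none was found in the other windows, that of Ezh1 included. The TEAD letters occurred in 1 of the 14 windows, that of the first Uhrf1 start (-193). CpG counts in the 250 upstream bases were 30 for the second Uhrf1 start, 26 for the third Dnmt1 start, 23 for Ezh2 and 14 for Ezh1, against a median of 6 over all windows, and the highest of the 14 was the 51 of Tet2. Which start was in use was not measured, since the table holds 1 value per gene.

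The values are normalised counts, which the authors obtained by dividing gene counts by a factor for each library. Summed over genes they came to 29.8 to 35.1 M per control library and 12.4 to 14.2 M per TAZ-CCl4 library, and the steps between low values put the depth at about 18.6 to 24.9 M and 12.4 to 33.8 M reads, as an estimate. Transcripts of the major urinary proteins (Mup) made up 10.6% to 24.1% of the control totals and at most 0.139% of the TAZ-CCl4 totals. Scaling therefore matters: over all tested genes the median log2 fold change was 0.03 on the deposited scale, 0.22 with equal upper quartiles, 0.85 with equal totals after leaving out Mup and mitochondrial genes, and 1.26 with equal totals. Wwtr1 was 280 to 463 in the controls and 4339 to 9021 in the TAZ-CCl4 libraries, as the labels say, with construct and mouse transcripts not separated. Fold changes are differences of log2(value + 1), TAZ-CCl4 minus control, tested with limma, with Benjamini-Hochberg adjustment over all 14171 genes. The labels do not say that each library is a separate mouse, so these p-values measure the spread between libraries, which may be partly technical.

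On the deposited scale 5 of the 9 genes rose (Dnmt1, Uhrf1, Tet3, Ezh1, Ezh2), Dnmt3a fell, and Dnmt3b, Tet1 and Tet2 were not past the threshold (limma, adjusted p under 0.05). Among all tested genes 32.4% were higher and 29.8% lower by the same rule, so rises were common in this comparison. With equal totals the background was 76.3% higher and 6.37% lower, and 8 of the 9 genes were higher and none lower. The same shares were 62.9% and 10.7% with equal totals after leaving out Mup and mitochondrial genes (7 of the 9 higher, none lower), 38.6% and 23.4% with equal upper quartiles (6 higher, none lower), and 27.8% and 29.8% with quantile normalisation (4 higher, 1 lower). Groups did not overlap for 5 genes that were higher (30.7% of all tested genes) and for 1 that was lower (29.4%). Of these, Dnmt1, Uhrf1, Tet3 and Ezh1, kept their direction and their call under every scaling, filter, pseudocount and left-out library tried. In bulk tissue, a change in the number of cells of a type and a change in RNA per cell cannot be told apart, and this holds for every value below.

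**Figure D1:**
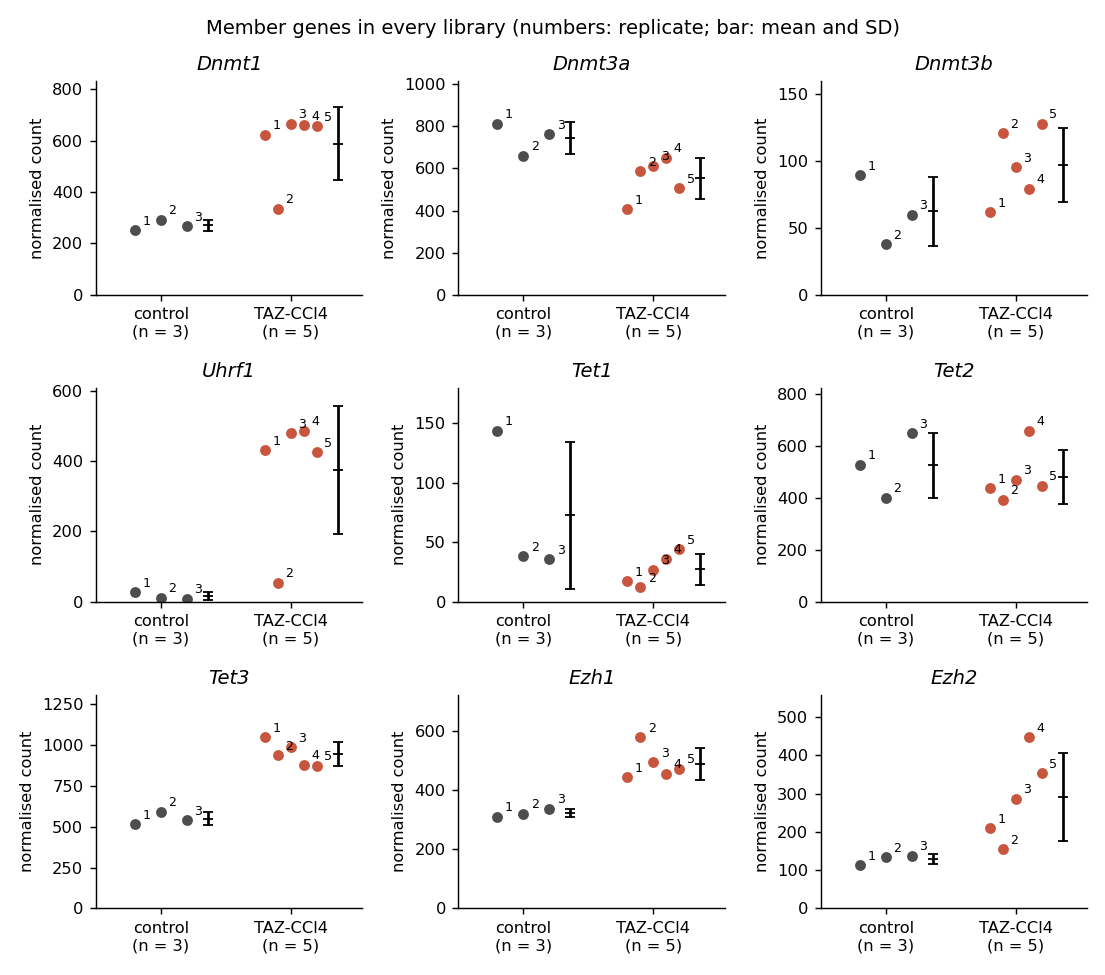
Normalised count (vertical axis, linear, from 0) of each of the 9 genes in the 3 control and 5 TAZ-CCl4 libraries, with replicate numbers beside the points and bars for mean and SD. The TAZ-CCl4 points lie above all controls for Dnmt1, Uhrf1, Tet3, Ezh1 and Ezh2 and below them for Dnmt3a, and replicate 2 is far below the other TAZ-CCl4 points for Uhrf1 (53.8 against 426 to 487) and Dnmt1 (335 against 623 to 665).

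Uhrf1 (mm10 chromosome 17, 56303321 to 56323486, plus strand) made the largest change of the 9. It was 27.4, 11.5 and 8.85 normalised counts in control replicates 1, 2 and 3, and 431, 53.8, 480, 487 and 426 in TAZ-CCl4 replicates 1 to 5. The control values correspond to about 14.5, 9.53 and 7.39 reads, so the control level is itself imprecise. Every TAZ-CCl4 library was above every control, with replicate 2 nearest to them. The means were 15.9 ± 10.0 (SD, n = 3) and 375 ± 182 (SD, n = 5), and the log2 fold change was 4.30 ± 0.70 (SE; limma, adjusted p = 0.00038). As a share of each library's total, Uhrf1 was 0.297 to 0.781 counts per M in the controls and 3.98 to 39.4 counts per M in the TAZ-CCl4 libraries, which again did not overlap.

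Dnmt1 (chromosome 9, 20907209 to 20959888, minus strand), the maintenance methyltransferase that Uhrf1 recruits, was 251, 292 and 267 in the controls and 623, 335, 665, 660 and 656 in the TAZ-CCl4 libraries. The other 4 TAZ-CCl4 libraries lay within 623 to 665, while replicate 2 lay between them and the controls. The means were 270 ± 20.6 (SD, n = 3) and 588 ± 142 (SD, n = 5), which is a log2 fold change of 1.08 ± 0.23 (SE), with adjusted p = 0.00204 by limma. The log2 ratio of Uhrf1 to Dnmt1 depends on a library's scaling factor only through the 1 added to each value. It was -4.16 ± 0.88 in the controls (SD, n = 3) and -0.94 ± 0.94 in the TAZ-CCl4 libraries (SD, n = 5). In linear terms Uhrf1 stood at 0.109, 0.0393 and 0.0331 of the Dnmt1 value in the controls, against 0.691, 0.160, 0.722, 0.738 and 0.649 in the TAZ-CCl4 libraries. The ratios did not overlap, and the exact two-sided permutation test over the 56 splits gave p = 0.0357, the smallest it can give, or 0.0625 after adjustment over the 7 ratios computed.

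Of the de novo enzymes, Dnmt3a (chromosome 12, 3806007 to 3914443, plus strand) was 812, 661 and 763 in the controls and 406, 588, 613, 651 and 505 in the TAZ-CCl4 libraries. The highest TAZ-CCl4 value, 651, was just below the lowest control, 661. Means of 745 ± 77.2 (SD, n = 3) and 553 ± 97.9 (SD, n = 5) gave a log2 fold change of -0.45 ± 0.17 (SE), with adjusted p = 0.0408 by limma. Among the scalings the fall passed the test only on the deposited one: with equal upper quartiles it was -0.25 (limma, adjusted p = 0.249), and with equal totals the direction turned to 0.80 (limma, adjusted p = 0.00115). In normalised counts per M of the total, Dnmt3a was 22 to 25.6 in the controls and 31.8 to 52.6 in the TAZ-CCl4 libraries. Relative to the median of all tested genes Dnmt3a was lower under each of these scalings. Leaving out control replicate 1, control replicate 3, TAZ-CCl4 replicate 1 or TAZ-CCl4 replicate 5 also ended the call, with limma adjusted p = 0.143, 0.113, 0.0567 and 0.0785.

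Dnmt3b (chromosome 2, 153649450 to 153687730, plus strand), the enzyme of early embryonic methylation, was 89.3, 37.8 and 60.0 in the controls and 61.7, 121, 95.5, 79.3 and 128 in the TAZ-CCl4 libraries. Control replicate 1 lay above TAZ-CCl4 replicates 1 and 4, so the groups overlapped. The means were 62.4 ± 25.8 (SD, n = 3) and 97.0 ± 27.7 (SD, n = 5), and the log2 fold change of 0.66 ± 0.33 (SE) missed the threshold (adjusted p = 0.107, limma). Without control replicate 1 it was 0.96 and passed (limma, adjusted p = 0.0431). Without control replicate 2 it was 0.35 (limma, adjusted p = 0.406). It passed with equal upper quartiles at 0.86, with equal totals at 1.90 and, after leaving out Mup and mitochondrial genes, at 1.48, and quantile normalisation turned it to -0.17 (limma, adjusted p = 0.680). Within libraries Dnmt3b was 0.110, 0.0572 and 0.0786 of Dnmt3a in the controls and 0.152, 0.205, 0.156, 0.122 and 0.253 in the TAZ-CCl4 libraries. Every TAZ-CCl4 ratio was above every control ratio, with a mean log2 difference of 1.11 (exact permutation p = 0.0357, adjusted 0.0625).

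Among the TET genes, Tet3 (chromosome 6, 83362373 to 83459084, minus strand) was 516, 593 and 539 in the controls and 1047, 938, 986, 881 and 873 in the TAZ-CCl4 libraries. All 5 TAZ-CCl4 libraries were above the controls, replicate 2 was in the middle of its group, and the spread was small. The means were 549 ± 39.8 (SD, n = 3) and 945 ± 73.1 (SD, n = 5), with a log2 fold change of 0.78 ± 0.12 (SE), with adjusted p = 0.000224 by limma. Tet2 (chromosome 3, 133463679 to 133545139, minus strand) was 528, 401 and 651 in the controls and 437, 393, 470, 660 and 448 in the TAZ-CCl4 libraries, which overlapped fully. Its log2 fold change was -0.12 ± 0.20 (SE; limma, adjusted p = 0.614) on the deposited scale and turned to 0.08 with equal upper quartiles (limma, adjusted p = 0.772) and 1.13 with equal totals (limma, adjusted p = 0.000699), where Tet2 was 13.3 to 21.8 counts per M in the controls and 29.1 to 53.4 counts per M in the TAZ-CCl4 libraries.

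Tet1 (chromosome 10, 62804570 to 62908996, minus strand) was 144, 38.1 and 35.5 in the controls and 17.3, 12.1, 27.0, 36.1 and 44.1 in the TAZ-CCl4 libraries. Control replicate 1 stood far above all other libraries, and the other two controls lay within the TAZ-CCl4 range. The log2 fold change of -1.20 ± 0.55 (SE) missed the threshold (adjusted p = 0.0796, limma). Leaving out each library in turn moved it between -1.55 and -0.56 without a call, and with equal totals it was 0.01. Quantile normalisation gave -2.12 and a call (limma, adjusted p = 0.00524). The ratio of Tet3 to Tet2 was 0.977, 1.48 and 0.83 in the controls and 2.40, 2.38, 2.10, 1.33 and 1.95 in the TAZ-CCl4 libraries, overlapping through TAZ-CCl4 replicate 4 (mean log2 difference 0.90; exact permutation p = 0.0714, adjusted 0.100).

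Both PRC2 methyltransferases rose. Ezh2 (chromosome 6, 47530139 to 47595341, minus strand) was 113, 134 and 138 in the controls and 210, 155, 287, 447 and 354 in the TAZ-CCl4 libraries. All 5 TAZ-CCl4 libraries were above the controls, but they spread widely, from 155 in replicate 2 to 447 in replicate 4. The means were 128 ± 13.5 (SD, n = 3) and 291 ± 116 (SD, n = 5), which is a log2 fold change of 1.08 ± 0.31 (SE), with adjusted p = 0.0116 by limma. Quantile normalisation ended the call at 0.73 (limma, adjusted p = 0.0921). Ezh1 (chromosome 11, 101191115 to 101226463, minus strand) was 310, 319 and 337 in the controls and 442, 577, 494, 456 and 471 in the TAZ-CCl4 libraries. Here replicate 2 was the highest of the 5, and the groups did not overlap. Its means were 322 ± 14.0 (SD, n = 3) and 488 ± 53.1 (SD, n = 5), with a log2 fold change of 0.59 ± 0.13 (SE), with adjusted p = 0.00284 by limma.

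A shift from Ezh1 to Ezh2 was not detected over the group as a whole. Ezh2 was 0.365, 0.419 and 0.411 of Ezh1 in the controls and 0.474, 0.268, 0.581, 0.982 and 0.751 in the TAZ-CCl4 libraries. In 4 TAZ-CCl4 libraries the ratio was above the controls, and replicate 2 was below them. The mean log2 ratio was -1.32 ± 0.11 in the controls (SD, n = 3) and -0.84 ± 0.71 in the TAZ-CCl4 libraries (SD, n = 5), which differ by 0.49 (exact permutation p = 0.286, adjusted 0.286). A p of this size does not show that the ratios were alike.

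**Figure D2:**
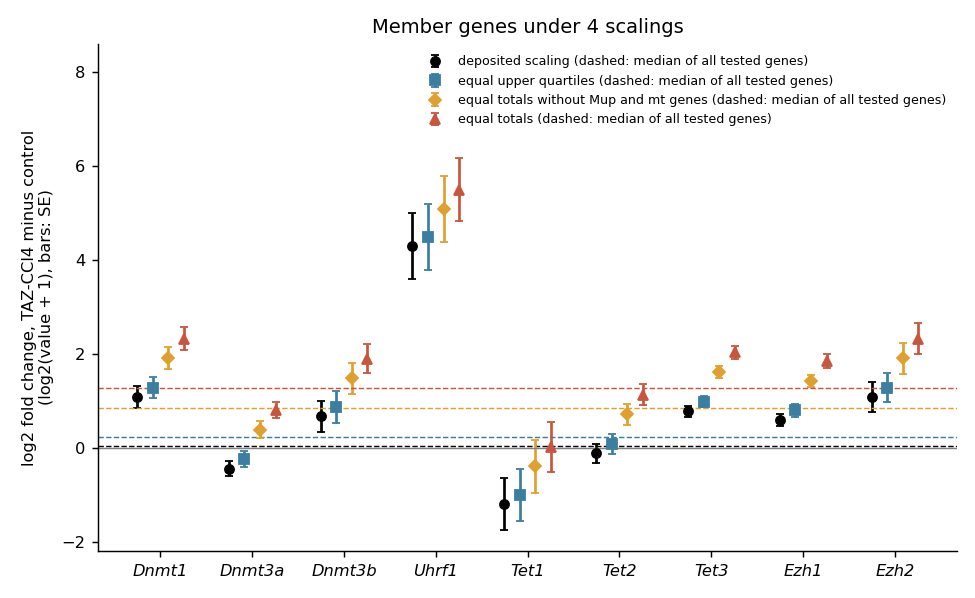
Log2 fold change (vertical axis, TAZ-CCl4 minus control, bars are SE) of the 9 genes under 4 scalings, with dashed lines at the median of all tested genes for each scaling. Uhrf1, Dnmt1, Tet3, Ezh1 and Ezh2 lie above zero and above the dashed line of their own colour throughout, while Dnmt3a runs from -0.45 to 0.80 and Tet2 from -0.12 to 1.13, each below the dashed line of its own colour.

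TAZ-CCl4 replicate 2 stood apart, though not only in the genes of cell division. In the list of 20 DNA replication genes, it was the lowest of the 5 TAZ-CCl4 libraries in 19, and in the list of 11 mitosis genes in 7. The mean log2 value of the replication genes was 6.17, 5.70 and 5.47 in the controls, 6.59 in TAZ-CCl4 replicate 2 and 7.86 to 8.22 in the other TAZ-CCl4 libraries. The same library had the lowest summed cholangiocyte, macrophage and T and NK cell markers of the 5, and its levels of the methionine cycle genes Mat1a, Bhmt and Ahcy were 422%, 322% and 270% of the mean of the other 4. The part of these differences in the values below was not tested. Uhrf1 in replicate 2 was 11.8% of the mean of the other 4 TAZ-CCl4 libraries, Tet1 39.0%, Ezh2 47.6%, Dnmt1 51.5% and Tet2 78.1%, while Tet3 was 99.1%, Dnmt3a 108%, Ezh1 124% and Dnmt3b 132%. Without replicate 2 the log2 fold change was 4.91 ± 0.34 for Uhrf1, 1.27 ± 0.12 for Dnmt1 and 1.28 ± 0.25 for Ezh2 (SE; limma, adjusted p = 3.56e-06, 2.17e-05 and 0.00159), and the count stayed at 5 genes higher and 1 lower. Replicate 2 was picked out in part by its low Uhrf1 and Dnmt1, so the smaller errors and p-values without it follow largely from that choice. Control replicate 1 had the highest replication and mitosis means of the controls. It also held their highest Uhrf1, Dnmt3a, Dnmt3b and Tet1 and their lowest Dnmt1, Tet3, Ezh1 and Ezh2.

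**Figure D3:**
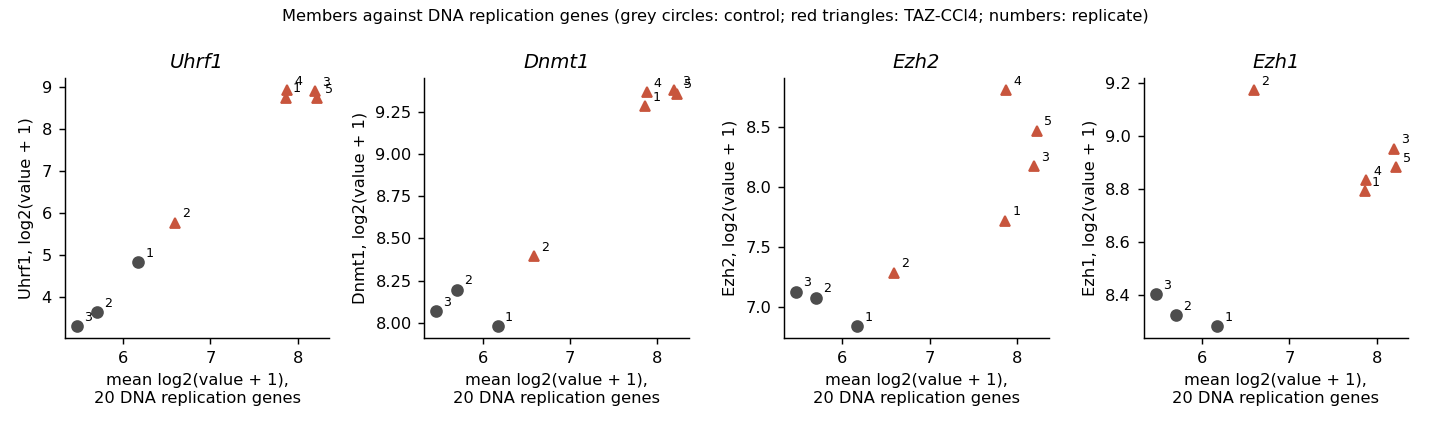
Log2(value + 1) of Uhrf1, Dnmt1, Ezh2 and Ezh1 (vertical axes) against the mean log2(value + 1) of 20 DNA replication genes (horizontal axes), 1 point per library. TAZ-CCl4 replicate 2, at 6.59 on the horizontal axis, lies next to the controls for Uhrf1, Dnmt1 and Ezh2 and above every other library for Ezh1.

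The members were also set against the replication helicase genes Mcm2 to Mcm7 within each library. This removes the scaling factor except through the 1 added to each value. The Mcm2 to Mcm7 mean was geometric, taken over log2(value + 1). Uhrf1 was 0.205, 0.153 and 0.148 of the Mcm2 to Mcm7 mean in the controls and 0.725, 0.303, 0.734, 0.931 and 0.647 in the TAZ-CCl4 libraries. The 5 TAZ-CCl4 ratios were all above the 3 control ratios, with a mean log2 difference of 1.81 (exact permutation p = 0.0357, adjusted 0.0625). Dnmt1 was 1.89, 3.88 and 4.48 times that mean in the controls and 1.05, 1.88, 1.02, 1.26 and 0.996 times in the TAZ-CCl4 libraries, a log2 difference of -1.41 (exact permutation p = 0.0357, adjusted 0.0625). Ezh2 was 0.849, 1.78 and 2.32 times that mean in the controls and 0.353, 0.869, 0.440, 0.855 and 0.537 times in the TAZ-CCl4 libraries, with an overlap at control replicate 1 (log2 difference -1.41; exact permutation p = 0.107, adjusted 0.125). None of the 7 ratios passed an adjusted p of 0.05, which this design cannot give to a single ratio unless 6 of the 7 reach the smallest p.

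Levels can be compared between genes per kilobase of exon (GENCODE M21 merged exons). In the controls Dnmt3a was the highest of the 9 at 75.2 normalised counts per kb, ahead of Tet2 at 57.2, Ezh1 at 52.9, Tet3 at 46.8, Ezh2 at 45.8 and Dnmt1 at 42.9. Ezh1 (50.9 to 55.4) and Tet3 (43.9 to 50.5) did not overlap over the 3 controls, whereas the other neighbours among these 6 did. Dnmt3b (14.4) lay below all controls of Dnmt1, and it overlapped Tet1 (5.06), which overlapped Uhrf1 (4.34). In the TAZ-CCl4 libraries Ezh2 (104), Uhrf1 (102) and Dnmt1 (93.3) had the highest means, followed by Tet3 (80.5), Ezh1 (80.3), Dnmt3a (55.8) and Tet2 (52.4), with Dnmt3b at 22.4 and Tet1 at 1.90. Neighbours overlapped in their range over the 5 libraries except Ezh1 and Dnmt3a, Tet2 and Dnmt3b, and Dnmt3b and Tet1. Uhrf1 ranged from 14.7 in replicate 2 to 133, so its place in the order differed between libraries.

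**Figure D4:**
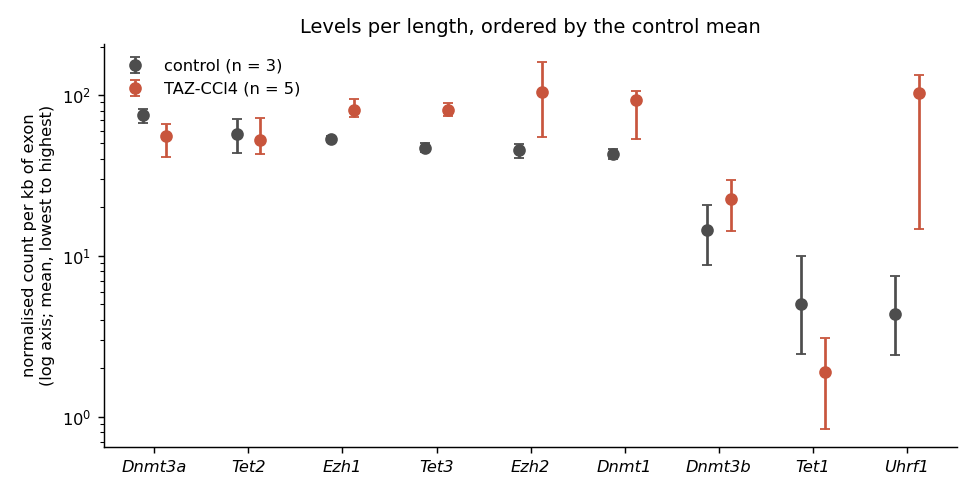
Normalised count per kb of exon (vertical axis, log scale) of the 9 genes, ordered by the control mean, with points for the mean and bars from the lowest to the highest library. Uhrf1 moves from the last place in the controls (4.34) to among the highest in the TAZ-CCl4 libraries (102), and Tet1 is lowest there (1.90).

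The genes whose pattern over the 8 libraries was most like a member were ranked by the root mean square difference of centred log2 values among 11896 candidates, as a description. For Uhrf1 they were Fignl1 (0.41), Ubd (0.45) and Cdk1 (0.61), the last a kinase that drives entry into mitosis. Like Uhrf1, they had their lowest TAZ-CCl4 value in replicate 2. Because genes were chosen for likeness over the same 8 libraries, such shared features follow largely from the choice, here and below. Fignl1 had a control mean of 3.97, below the filter on low values, so it was a candidate only through the TAZ-CCl4 libraries. Nsd2, a histone methyltransferase (0.14), Samhd1, a dNTP hydrolase (0.15), and BC052040 (0.15) were nearest to Dnmt1, again with replicate 2 the lowest of the 5. Impa2 (0.16), Fbxo5, an inhibitor of the anaphase-promoting complex (0.16), and Gstm5 (0.20) were nearest to Ezh2, and like Ezh2 were highest in replicate 4. Impa2 and Fbxo5, with control means of 36.6 and 29.3, were likewise candidates only through the TAZ-CCl4 libraries. Cyp4a31 (0.21), Zranb3 (0.22) and Slc41a1 (0.30) were nearest to Dnmt3b.

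Genes that act with Dnmt1, Uhrf1 or the de novo enzymes were counted next. Counts of lists are read against the shares of all tested genes, 32.4% higher and 29.8% lower on the deposited scale and 76.3% and 6.37% with equal totals. Of the 8 DNA methylation partners 7 were tested, and 4 were higher, none lower and 3 not past the test, with a median log2 fold change of 1.90 against 0.03 for all tested genes. With equal totals all 7 were higher (median 3.12 against 1.26). Lig1, the ligase that joins Okazaki fragments and binds Uhrf1, was 60.0, 47.7 and 48.5 in the controls and 660, 183, 612, 740 and 629 in the TAZ-CCl4 libraries, a log2 fold change of 3.28 ± 0.41 (SE), with adjusted p = 6.39e-05 by limma. Hells, a remodeller needed for DNA methylation, was 37.1 to 47.6 in the controls and 279, 63.3, 183, 136 and 234 in the TAZ-CCl4 libraries (1.91 ± 0.42, SE; limma, adjusted p = 0.00264). Both were lowest of the 5 in replicate 2, as Uhrf1 and Dnmt1 were. Cdca7, which brings Hells to chromatin, rose by a log2 fold change of 1.90. Its paralogue Cdca7l, called higher at 3.04, was 8.34, 4.26 and 1.06 in the controls and 7.20, 29.5, 89.9, 47.5 and 73.6 in the TAZ-CCl4 libraries. These groups overlapped, and with a control mean of 4.55 it passed the filter only through the TAZ-CCl4 libraries. Cdca7l therefore adds no support to the count or to the median of 1.90. With a minimum mean of 50, which leaves Cdca7l out, 3 of 6 partners were higher. Their median was then 0.97, against -0.05 for all tested genes. Hells and Cdca7 had control means of 41.8 and 30.2, below 50. They passed this stricter filter only through the TAZ-CCl4 libraries, so this count and median add no support either. Uhrf2, the paralogue of Uhrf1, was 609 and 625 in the mean of the groups (log2 fold change 0.04; limma, adjusted p = 0.827), and the deubiquitinase Usp7 (-0.30) and Zbtb24 (-0.04) also did not pass. Dnmt3l, a germ-cell cofactor of the de novo enzymes, was too low to test, at a mean of 1.6 in the controls and 1.92 in the TAZ-CCl4 libraries. With quantile normalisation 1 of the 7 was higher.

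**Figure D5:**
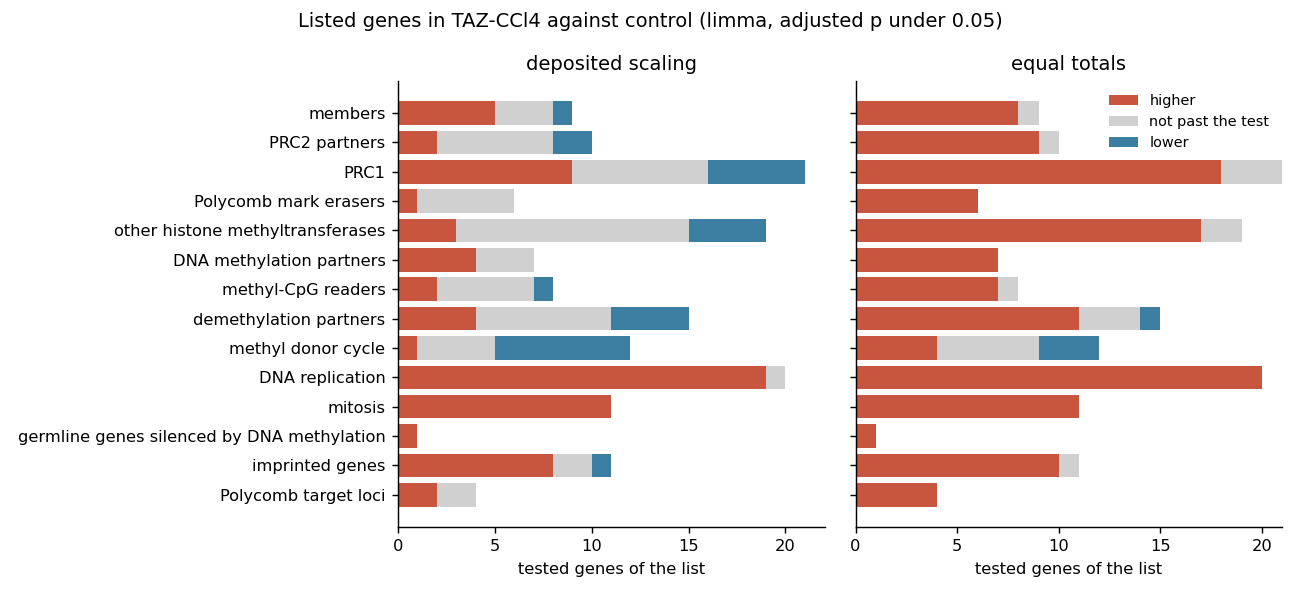
Number of tested genes (horizontal axis) of the 9 members and of 13 related lists that were higher, not past the test or lower in TAZ-CCl4 libraries, on the deposited scale (left) and with equal totals (right). DNA replication (19 of 20) and mitosis (11 of 11) are nearly all higher on both sides, while the PRC2 partners change from 2 higher and 2 lower to 9 higher.

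The other PRC2 subunits did not move as 1 group. Of the 10 PRC2 partners 2 were higher, 2 lower and 6 not past the test, with a median log2 fold change of 0.25, and with equal totals 9 were higher and none lower (median 1.49). The core subunits that Ezh1 and Ezh2 need, Eed and Suz12, were at -0.13 and 0.10 (limma, adjusted p = 0.448 and 0.508). The histone-binding subunit Rbbp7 rose from 1069 to 2291 (1.09 ± 0.13, SE; limma, adjusted p = 5.55e-05), and the accessory subunit Aebp2 from 445 to 867 (0.96). Rbbp4, the paralogue of Rbbp7, fell from 2438 to 1593 (-0.64), and Epop from 65.5 to 30.8 (-1.11) on the deposited scale, whereas with equal totals both differences turned positive, at 0.61 and 0.11. Jarid2 (0.57), Mtf2 (0.39), Phf1 (-0.18) and Phf19 (0.90) did not pass the test. The enzymes that remove the Polycomb marks were mostly not past it, with 1 of 6 higher: Asxl1, a cofactor of the deubiquitinase Bap1, rose from 544 to 1308 (1.24; limma, adjusted p = 0.000251). The demethylases Kdm6a (-0.08) and Kdm6b (0.42), Bap1 (-0.10), Asxl2 (-0.03) and Usp16 (-0.13) did not pass on the deposited scale. With equal totals all 6 were higher, with a median of 1.20 against 1.26 for all tested genes, so this count depends on the scaling.

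In PRC1, the complex that ubiquitinates histone H2A and binds the mark made by Ezh1 and Ezh2, 9 of 21 genes were higher and 5 lower (median -0.05, against 0.03 for all tested genes), and with equal totals 18 were higher and none lower (median 1.19, against 1.26). The equal-totals count is near the share of all genes. The largest rises were those of Cbx6, a reader of that mark, from 86.2 to 105 in the controls to 990 to 2019 in the TAZ-CCl4 libraries (3.93 ± 0.24, SE; limma, adjusted p = 1e-06), and Phc1, from a mean of 41.8 to 224 (2.25). Of 19 other histone methyltransferases 3 were higher and 4 lower (median -0.02; 17 higher and none lower with equal totals), among them Nsd2 at 1.12 and Prdm9 at -1.42, the latter at -0.18 with equal totals.

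Of the 8 genes listed as readers of methylated CpG or their relatives, 2 were higher, 1 lower and 5 not past the test (median -0.12; 7 higher and none lower with equal totals). Mbd4, a glycosylase that repairs deaminated methylcytosine, rose from 28.2 to 87.1 (1.61 ± 0.34, SE; limma, adjusted p = 0.00196), Zbtb4 rose from 260 to 490 (0.91), and Mbd1 fell from 1625 to 954 (-0.77), which turned to 0.48 with equal totals. Mbd2 (-0.09), Mbd3 (-0.21), Zbtb33 (-0.15) and Zbtb38 (0.35) did not pass. Among 15 genes that act with or feed the TET enzymes 4 were higher and 4 lower (median 0.14; 11 higher and 1 lower with equal totals). Idh1, which makes the cosubstrate alpha-ketoglutarate that TET enzymes use, fell from 9697 to 2609 (-1.94 ± 0.22, SE; limma, adjusted p = 3.15e-05) and was still lower with equal totals (-0.69). Idh2, its mitochondrial counterpart, rose from 2296 to 4236 (0.88). Gadd45b, a stress-response gene linked to demethylation, rose from 119 to 632 (2.38), and its paralogue Gadd45g fell from 648 to 251 (-1.45), or -0.20 without a call with equal totals. Cxxc4, also called higher, had a control mean of 6.12 and a TAZ-CCl4 mean of 38.3. It passed the filter on low values only through the TAZ-CCl4 libraries, so it adds no support to the count. Idh2, Gadd45g and Cxxc4 were chosen after their values were seen.

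The methyl donor list, of genes that make, use or recycle S-adenosylmethionine, the donor for the Dnmt and Ezh enzymes, went mostly the other way. Of 12 genes 1 was higher and 7 lower (median -1.37), and with equal totals 4 were higher and 3 lower (median -0.12). The S-adenosylmethionine synthase subunit genes Mat1a (-0.98), Mat2a (0.13) and Mat2b (-0.07) did not pass (limma, adjusted p = 0.123, 0.48 and 0.636). They were named after their values were seen. Mat1a was 52050 in TAZ-CCl4 replicate 2, against 7186 to 17620 in the other TAZ-CCl4 libraries. Without replicate 2 the Mat1a log2 fold change was -1.41, and 8 genes of the list were lower. The lower genes include users of S-adenosylmethionine, so the count does not show that its supply fell. Nnmt, which spends S-adenosylmethionine on nicotinamide, fell from 1571 to 2619 in the controls to 53.2 to 229 in the TAZ-CCl4 libraries, a log2 fold change of -4.07 ± 0.40 (SE), with adjusted p = 1.26e-05 by limma that was -2.82 with equal totals. Gnmt, the glycine methyltransferase of hepatocytes, fell from a mean of 24830 to 3615 (-2.94), and its highest TAZ-CCl4 value, 7379, was in replicate 2. Hepatocyte markers were lower in the same libraries (7 of 8 genes), and their part in this was not tested.

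DNA replication genes were higher in 19 of 20 cases (median 2.10; all 20 with equal totals), the exception being Tyms at 0.15, and mitosis genes in 11 of 11 (median 4.17). Mcm6 rose from a mean of 97.4 to 1134 (log2 fold change 3.52), Gins2 from 13.6 to 123 (3.45), Mki67 from 41.7 to 1020 (4.47) and Foxm1 from 7.87 to 274 (4.88). Cdc6, Bub1 and Foxm1 had control means below the filter of 10 and were tested only because of their TAZ-CCl4 level. On the same scale Dnmt1 and Ezh2 were at 1.08 and Uhrf1 at 4.30, and these differences between genes were not tested.

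Markers of other cells moved with the groups, beside every result above. Hepatocyte markers were lower in 7 of 8 cases, with a summed level of 1768000 to 2269000 in the controls and 667900 to 966000 in the TAZ-CCl4 libraries, and with equal totals 4 of 8 were lower. Cholangiocyte markers were higher in 6 of 6 (sum 2293 to 2896 against 34820 to 121700), stellate and fibroblast markers in 4 of 8 (2050 to 3543 against 6988 to 10890), macrophage markers in 4 of 7 (1441 to 2339 against 5242 to 11750) and T and NK cell markers in 3 of 5 (73.1 to 94.8 against 102 to 253), with the cholangiocyte, macrophage and T and NK cell sums lowest of the 5 in TAZ-CCl4 replicate 2. B and plasma cell markers were higher in 2 of 5 (68.9 to 154 against 230 to 1210). Of 5 neutrophil markers 3 were tested and all were higher (52.2 to 56.7 against 362 to 659), with Ly6g and Mpo at 0 in all controls. Endothelial markers were higher in 2 and lower in 2 of 6 (1387 to 2619 against 1645 to 2589), and of 4 erythroid markers 2 were tested and both were lower (4276 to 4613 against 300 to 799). With equal totals 4 endothelial markers were higher and none lower, and 1 erythroid marker was lower. The liver label was met by the hepatocyte markers in all 8 libraries, and the part of the other cells in the levels of the 9 genes was not tested.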

How the data were processed

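Per the labels' protocols, poly-A RNA from liver pieces was read as paired ends on a NovaSeq. The deposited table, which the authors made with kallisto and DESeq2 as its name gives, gives for each gene and library a signal, the normalised count; the mm10 build and DESeq2 are named per the submitters' processing notes, with versions and annotation not given in the sources used here. Depending on the library, 47.3% to 66.8% of the low values (below 10) were within 0.03 of whole multiples of the commonest step, too few to recover reads, so count models were not used. Groups follow the labels.

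Genes with a mean of at least 10 (14171 of 35204) were compared as log2(value + 1) with limma 3.58.1 (R 4.3.3) with a variance trend, adjusted by Benjamini-Hochberg at 0.05, and ratios within libraries with an exact permutation test (scipy 1.17.1). No covariate was used. The 9 genes, the related gene lists and the marker lists were chosen with earlier results of these data known. All 9 genes and all genes of lists of at most 10 are named, except 1 that is not reported here; from longer lists the 2 called genes that changed most and reach a mean of 50 in either group; and 3 genes of like pattern for Uhrf1, Ezh2, Dnmt1 and Dnmt3b. The test was checked on simulated data. Positions are from GENCODE M21 and promoters from RefSeq (GRCm38.p6). The imprinted RNAs H19, Meg3 and Rian were not analysed here. Alternatives were other pseudocounts (0.5 and 5), filters, 4 scalings, limma without a trend, a replicate block and each library left out.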

Additional observations from a re-analysis of the deposited data

Results flagged for a closer look

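In the 16 sets of 5 TAZ-CCl4 values examined (the 9 genes and the 7 ratios), 4 held a library whose gap to the nearest other exceeded Dixon's 95% limit for the group, where chance gives about 1 in 20. Dnmt1 was 335 in replicate 2, against 623 to 665 in the others (gap 0.874 of the range). Uhrf1 was 53.8 in replicate 2, against 426 to 487 (0.859). The log2 ratio of Uhrf1 to Dnmt1 was -2.62 in replicate 2, against -0.62 to -0.44 (0.915). Tet2 was 660 in replicate 4, against 393 to 470 (0.712). The first 3 share 1 library and related genes, so they are not separate observations. In that library Hells was 63.3, Lig1 183 and Mcm6 409, each the lowest of the 5.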

How the results depend on the processing

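Dnmt1, Uhrf1, Tet3 and Ezh1 kept direction and call under all alternatives. Dnmt3a, at -0.45, was -0.45 without a call when no filter was used (limma, adjusted p = 0.0538) and without the variance trend (0.0628), -0.25 with equal upper quartiles, -0.29 with quantile normalisation, 0.39 with equal totals without Mup and mitochondrial genes and 0.80 with equal totals. For Dnmt3b the values were 1.90 (equal totals), 1.48 (without Mup and mitochondrial genes), 0.86 (upper quartiles) and -0.17 (quantile), for Tet2 1.13, 0.71 and 0.0761 under the first 3, for Tet1 0.0122 (equal totals) and -2.12 (quantile), and for Ezh2 0.73 (quantile). Genes called higher numbered 4592, against 10808 with equal totals and 8912 without Mup and mitochondrial genes, and genes called lower 4230, against 903 and 1512. Leaving out each library gave -0.53 to -0.34 for Dnmt3a, 0.35 to 0.96 for Dnmt3b, -0.31 to 0.0428 for Tet2 (the latter without control replicate 3), -1.55 to -0.56 for Tet1, 0.90 to 1.28 for Ezh2, 1.02 to 1.27 for Dnmt1, 3.99 to 4.91 for Uhrf1, 0.74 to 0.84 for Tet3 and 0.53 to 0.63 for Ezh1. The number of listed genes called was 91, and 77 to 97 in those fits. With a minimum mean of 50 Tet1 was not tested. The 7 ratios kept their direction; with a library left out their exact test cannot reach 0.05, so it says nothing of stability. The causes were not tested.

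The replicate numbers do not pair the libraries: deviations from the group means correlated at -0.0665, -0.064 and -0.0883 for numbers 1, 2 and 3. With the replicate block the log2 fold change was -0.49 for Dnmt3a (limma, adjusted p = 0.0893) and 0.71 for Ezh2 (0.0524), and the other 7 genes kept their side of the threshold. Calls over all genes were 3801 higher and 3479 lower, and 78 listed genes. Depth limits Uhrf1, Tet1 and Dnmt3b most, the lowest of the 9 in the controls.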

Other observations

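Lists of genes known to be silenced by these marks were looked at as well. Of 13 germline genes that DNA methylation keeps silent in somatic cells, 12 were too low to test, with group means of at most 3.04 normalised counts. The exception was Asz1, at 0, 0 and 2.56 in the controls and 17.2, 11.8, 29.6, 44.8 and 34.9 in the TAZ-CCl4 libraries. It passed the filter on low values only through the TAZ-CCl4 libraries, so that it was tested and that it was higher are not separate facts. Of 18 Polycomb target loci, among them the Hox genes, 4 were tested, with 2 higher and 2 not past the test. Cdkn2b was 3.78, 7.25 and 13.2 in the controls and 51.7, 20.7, 63.5, 52.1 and 75.3 in the TAZ-CCl4 libraries. Its neighbour Cdkn2a, named after its values were seen, was 0, 1.26 and 0 in the controls and 29.5, 21.6, 80.9, 32.9 and 66.4 in the TAZ-CCl4 libraries. Both had control means below the filter and were tested only because of their TAZ-CCl4 level, so the count of 2 higher supports nothing about the list.

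Of 16 imprinted genes 13 were analysed and 11 tested, and 8 of these were higher, 1 lower and 2 not past the test, where 32.4% of all tested genes were higher and 29.8% lower. With equal totals 10 were higher and none lower, against 76.3% and 6.37%. The 8 include Zim1, which passed the filter only through the TAZ-CCl4 libraries. Igf2, the fetal growth factor, was 21.4, 24.6 and 8.75 in the controls and 39060, 114400, 14040, 112900 and 4695 in the TAZ-CCl4 libraries. Zim1 was 0, 1.84 and 0 in the controls and 550, 221, 108, 266 and 105 in the TAZ-CCl4 libraries. For Igf2 replicate 2 was the highest of the 5, unlike for Uhrf1 and Dnmt1. Whether methylation at these loci differed was not measured.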
